A study of Mus musculus with 5 samples.

Results

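The alcohol and aldehyde dehydrogenases described here are 10 genes, namely Adh1, Adh4, Adh5, Adh7, Aldh1a1, Aldh2, Aldh1b1, Aldh1l1, Aldh3a2 and Aldh8a1. They were found by their symbols in the first column of the authors' comparison of 4N with WT liver, and 10 of the 23022 genes listed there matched. Poly(A)-selected RNA was sequenced from livers of E18.5 mouse embryos, in 3 libraries of 4N liver and 2 of WT liver. The 4N livers came from Hhex knockout host embryos that had received tetraploid embryonic stem cells carrying td-Tomato, a red fluorescent protein, as blastocysts. Hhex is a homeobox gene needed for liver formation. The WT livers came from normal embryos of the same day. Ploidy, the origin of the liver cells, the Hhex genotype of the host and the manipulation of the embryo therefore differed between the groups at once and cannot be told apart. The labels do not say how many host cells remained in the 4N livers, whether the injected cells were 1 line or clone, or whether littermates were used within a group, so the p-values measure only the spread between these samples.

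Alcohol dehydrogenases oxidize alcohols such as ethanol, retinol and the glutathione adduct of formaldehyde to aldehydes, and aldehyde dehydrogenases oxidize aldehydes on to acids. In adult liver the hepatocytes hold much of both families, and the main route of ethanol runs through the cytosolic enzyme Adh1 to acetaldehyde and then through the mitochondrial enzyme Aldh2 to acetate. The relatives of Aldh2 each serve another aldehyde, among them retinal, the folate-bound formyl group, long-chain fatty aldehydes and a semialdehyde made from tryptophan.

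Promoters are shown for 6 genes, 5 of the 6 that differed between the groups and Adh5 beside them. Aldh1b1, which also fell, is not shown. The start of the rising Adh1 can be read against those of Adh4 and Adh5 from the same gene cluster and of 3 falling aldehyde dehydrogenases. Each is the 150 bases before the annotated start on the gene's own strand, 5′ to 3′, from the RefSeq promoter table of build GRCm38.p6, which held 9 of the 10 genes. The Adh1 window ends 91 bases before the RefSeq start, at the GENCODE start, and Adh5 has 2 starts in that table. Capitals mark the letters of a CCAAT box, of a GC box (GGGCGG) or of CAAAGTCC on either strand.
Adh1 chr3:138277344-138277493, plus strand: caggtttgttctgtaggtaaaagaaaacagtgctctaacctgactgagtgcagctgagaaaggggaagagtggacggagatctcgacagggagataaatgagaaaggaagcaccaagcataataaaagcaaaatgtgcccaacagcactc
Adh4 chr3:138415347-138415496, plus strand: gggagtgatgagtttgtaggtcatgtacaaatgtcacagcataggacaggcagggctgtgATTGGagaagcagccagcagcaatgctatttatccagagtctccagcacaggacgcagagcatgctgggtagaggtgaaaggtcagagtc
Adh5 chr3:138442943-138443092, plus strand: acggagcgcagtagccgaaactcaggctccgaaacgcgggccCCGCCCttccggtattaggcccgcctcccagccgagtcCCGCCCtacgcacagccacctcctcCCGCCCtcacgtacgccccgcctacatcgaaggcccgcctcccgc
Aldh1l1 chr6:90550643-90550792, plus strand: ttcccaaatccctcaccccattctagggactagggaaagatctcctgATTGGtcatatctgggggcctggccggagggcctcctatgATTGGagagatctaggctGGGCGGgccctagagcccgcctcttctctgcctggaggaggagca
Aldh3a2 chr11:61267187-61267336, minus strand: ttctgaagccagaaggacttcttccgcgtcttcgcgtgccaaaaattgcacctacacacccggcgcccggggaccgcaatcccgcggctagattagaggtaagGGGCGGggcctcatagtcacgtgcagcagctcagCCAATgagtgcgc
Aldh8a1 chr10:21377150-21377299, plus strand: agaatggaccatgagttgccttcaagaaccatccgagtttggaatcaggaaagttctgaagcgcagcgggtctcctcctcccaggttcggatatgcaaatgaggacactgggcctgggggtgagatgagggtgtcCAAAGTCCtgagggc
The motif set was chosen after the sequences had been seen, and no 2 of the marked matches overlap. Counted back from -1 at the 3′ end of the window, the CCAAT letters of Adh4 began at -90, and the GC box GGGCGG of Adh5 was found at -108, -70 and -45. Aldh1l1 had CCAAT at -103 and -63 and a GC box at -45, Aldh3a2 had a GC box at -47 and CCAAT at -13, and Aldh8a1 had CAAAGTCC, a core recognised by HNF4, at -15. Windows of the 250 bases before the RefSeq start were also read, which for Adh1 run 91 bases past the end of the window shown. In them CCAAT stood in 4 of the 9 genes and in 34.7% of the 17651 promoters of listed genes, GGGCGG in 4 of 9 and 49.9%, and CAAAGTCC in 1 of 9 and 1.35%. The C/EBP letters TTGCNNAA stood in 3 of 9 and 8.41%, and TATAAA in 1 of 9 and 7.83%. GTTAAT, the letters of an HNF1 half-site, stood in 0 of 9 and 4.88%. These matches describe the letters of these windows and no binding was measured. The observed over expected CpG ratio of the 250-base windows was 0.418 for Adh1 and 0.0986 for Adh4, against 0.896 for Adh5, with a median of 0.637 over all promoters. It was 0.316 for Aldh1l1, 0.770 for Aldh3a2, 0.279 for Aldh8a1 and 0.231 for Aldh1b1. Among the genes that fell, only Aldh3a2 lay above that median, and the rising Adh1 lay below it.

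The comparison held the mean normalized count of each gene over all 5 libraries, with a log2 fold change and its standard error (SE), and single libraries were not analysed here. Its numerator is not named, and it was read as 4N over WT from a limit that counting sets on the standard errors, which every direction and implied level below rests on. Depth per library is therefore unknown, and the mean normalized counts of all genes summed to 78112300. Hhex, which the host embryos lacked, had a mean of 5894 normalized counts and a log2 value of 0.55 (SE 0.33, adjusted p = 0.286) for 4N over WT in the authors' deposited table, and 1.19 (adjusted p = 0.00144) after plasma-protein recentring. This recentring sets the median of 27 secreted plasma proteins, which was -0.64, to 0 and so adds 0.64 to every value. All 10 of 10 hepatocyte markers were abundant (means from 23790 upward), and their summed implied level was 12336300 in 4N and 12409100 in WT, a ratio of 0.994. The median log2 fold change of these markers was -0.10 as deposited, with 0 called higher and 1 lower. Plasma-protein recentring moves that median above 0, so the 2 centres differ on these markers. Albumin (Alb) had a log2 fold change of 0.01 with an SE of 0.22 (adjusted p = 0.991), and Apob fell by 1.05 ± 0.32 (SE; adjusted p = 0.0117) according to the authors' deposited table. Of 12 erythroid markers 11 were listed and 11 of 11 rose, with a summed level of 3336830 in 4N against 974720 in WT, a ratio of 3.42. Hba-a1 rose by 1.82 (SE 0.39), Hbb-bs by 1.71 (SE 0.20) and Hba-a2 by 3.29 (SE 0.34) according to the authors' deposited table. Of the 27 secreted proteins 0 were called higher and 15 lower, among them Hpx (-2.67, SE 0.20), Apoc3 (-4.07, SE 0.33), Fetub (-2.36, SE 0.27) and Serpina1c (-1.15, SE 0.23) in the authors' deposited table. Summed levels in 4N over WT were 1.33 for 10 macrophage, 0.877 for 10 endothelial, 1.65 for 10 stellate and mesenchymal, and 0.832 for 8 cholangiocyte markers. Of 12 markers of stomach, lung and gut epithelium, 7 were listed, with means from 5.58 to 205, and Cdx2, Gkn1, Gkn2, Krt5 and Krt13 were not among the genes listed. Of 10 macrophage markers 4 were called higher and 1 lower, and of 10 endothelial markers 0 and 1. Of 10 stellate and mesenchymal markers 3 were called higher and 1 lower, and of 8 cholangiocyte markers 0 and 1. Of the 7 epithelial markers 1 was called higher and 3 lower. Of all genes, 7.94% were called higher and 7.41% lower. Called markers included Csf1r (0.87) and Vsig4 (-1.87) of macrophages, Clec4g (-1.23) of endothelium, Reln (1.14) and Col1a1 (1.62) of stellate and mesenchymal cells, Spp1 (-1.05) of cholangiocytes, and Vil1 (2.11) and Tff1 (-3.81) of gut and stomach, as log2 fold changes in the authors' deposited table. The most abundant endothelial marker, Stab2, was not called there, and the calls of Apob, Serpina1c, Clec4g and Spp1 are lost after plasma-protein recentring. The part of these shifts in the results below was not tested, and in bulk tissue fewer cells of a type and less RNA per cell cannot be told apart.

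Of the 10 dehydrogenases, Adh1 rose in 4N liver and 5 fell, namely Adh4, Aldh1b1, Aldh1l1, Aldh3a2 and Aldh8a1. Adh5, Adh7, Aldh1a1 and Aldh2 did not pass the test. A gene was called where the adjusted p of the authors' Wald test was under 0.05. By that rule 15.3% of all genes were called, 7.94% as higher and 7.41% as lower in 4N. The genes called as lower were thus 5 of 10, against 7.41% of all genes, and those called as higher 1 of 10, against 7.94%. Calls depend on abundance: among 8656 genes whose mean reached 1000, 11.9% were called higher and 10.3% lower, and of the 7 dehydrogenases at that level 1 was higher and 4 were lower. The median log2 fold change of the 10 genes was -0.72, against -0.00 for all genes. Read against a t distribution with 3 degrees of freedom, which the 5 libraries would leave, 0 of the 10 genes and 0 of all genes were called, with 5 of 10 and 2513 of all genes at an unadjusted p under 0.05. That reading is strict, since even Tdo2 with a Wald score of -15.6 did not pass it. Its count of 0 therefore does not set the 10 genes apart from others. A test against a 1.5-fold change left 3 of the 10, Adh4, Aldh1l1 and Aldh8a1, all lower, against 2.55% of all genes called lower and 2.26% called higher. After plasma-protein recentring Adh1 and Adh5 were called as higher, 2 of 10 against 32.8% of all genes, and Adh4, Aldh1l1 and Aldh8a1 as lower, 3 of 10 against 3.52%. The recentred counts of the lists below stand against the same 32.8% and 3.52%.

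**Figure D1:**
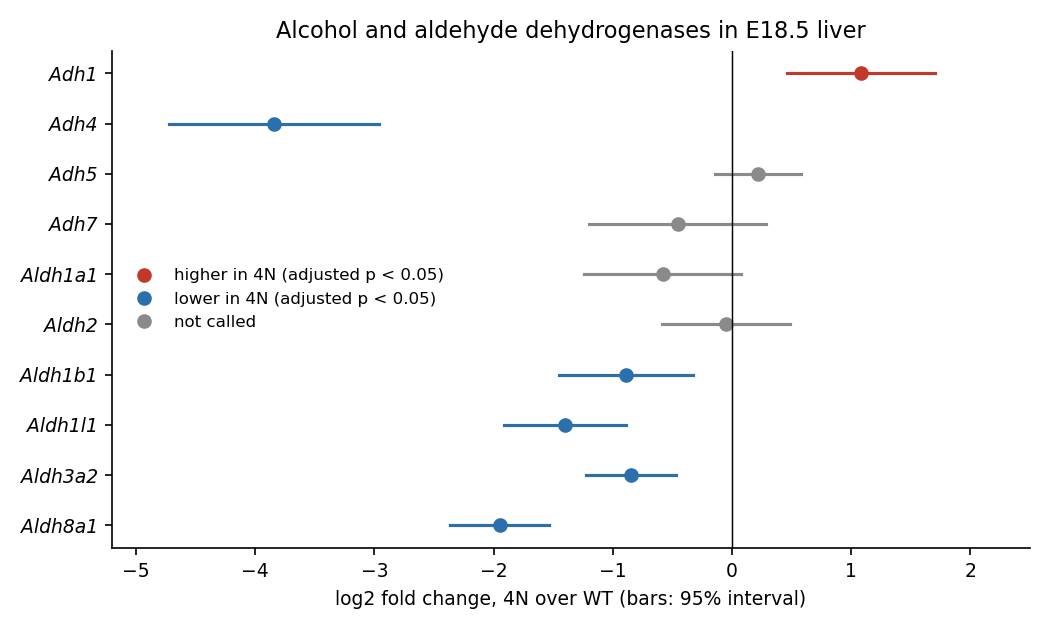
Log2 fold change of 4N over WT for each of the 10 genes, with points coloured by the call and bars for the 95% interval from the standard error. Adh1 lies at 1.08 to the right of 0, and Adh4 at -3.84 lies farthest to the left.

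**Figure D2:**
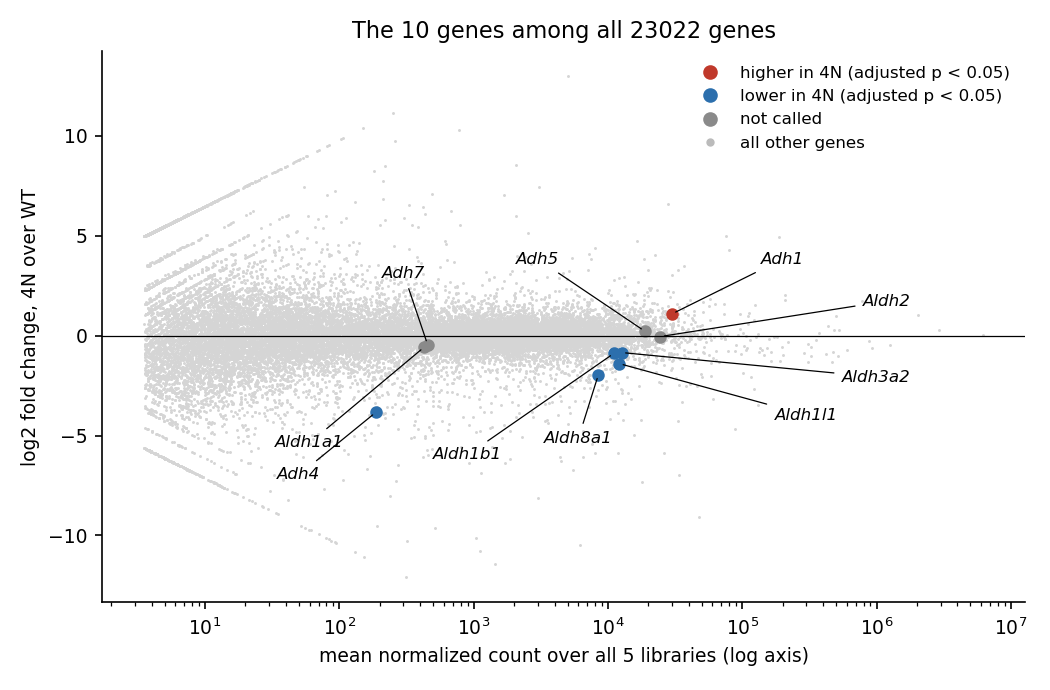
Log2 fold change of 4N over WT (vertical) against the mean normalized count over all 5 libraries (horizontal, log axis) for all 23022 genes, with the 10 dehydrogenases enlarged and named. Adh4, Adh7 and Aldh1a1 have means between 187 and 454, and the other 7 lie between 8488 and 29932.

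Adh1 encodes the class I enzyme, which oxidizes ethanol and retinol in the cytosol, and per kilobase of transcript it was the most abundant of the 10 genes in both groups. Its mean of 29932 normalized counts placed it at rank 233 of all genes in the authors' deposited table. That mean and the fold change imply 37944 normalized counts in 4N and 17913 in WT, a level of 212% of WT with a 95% interval of 138 to 326%. Implied levels assume that the overall mean weighs each of the 5 libraries equally, and they have no error beyond that of the fold change. The log2 fold change was 1.08 ± 0.32 (SE; adjusted p = 0.00676) according to the authors' deposited table. Its direction was the same under each other scaling tried, with 1.72 after plasma-protein recentring, but a test against a 1.5-fold change gave an adjusted p of 0.842. An antisense transcript, Gm16559, covers 9.12% of the Adh1 transcript, and whether the counting used strand is not given in the sources used here. It had a log2 fold change of 0.95 with an SE of 0.43 (adjusted p = 0.124) according to the authors' deposited table.

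Adh4 encodes the class II enzyme, whose substrates include longer alcohols and retinol, and it fell farthest of the 10. Implied levels were 29.5 normalized counts in 4N and 423 in WT, so that 4N kept 6.98% of the WT level (95% interval 3.79 to 12.9%) and WT was 14.3-fold higher. In log2 units the fold change was -3.84 ± 0.45 (SE; adjusted p = 1.65e-15) according to the authors' deposited table. Its mean over all libraries was 187 normalized counts, rank 12631 of all genes, and per kilobase of transcript it was the lowest of the 10 in 4N but not in WT.

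Adh5 encodes the class III enzyme, which oxidizes the glutathione adduct of formaldehyde and reduces S-nitrosoglutathione, and it was abundant in both groups. Its implied level was 19914 normalized counts in 4N and 17124 in WT, or 116% of WT with a 95% interval of 90.5 to 150%. Its log2 fold change of 0.22 with an SE of 0.18 (adjusted p = 0.512) fell short of the threshold in the authors' deposited table, and it became 0.86 (adjusted p = 3.70e-05) after plasma-protein recentring. Adh7, the class IV enzyme known for retinol oxidation in stomach lining, had an implied 395 normalized counts in 4N and 542 in WT, or 72.9% of WT (95% interval 43.6 to 122%). The authors' deposited table gave Adh7 a log2 fold change of -0.46 with an SE of 0.38 (adjusted p = 0.500), and the sign turned to 0.18 after plasma-protein recentring.

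The 4 Adh genes lie close together on chromosome 3, and the 2 that were called stood among genes that were not. Between Adh7 at one end and Adh5 at the other stand, in order, 0610031O16Rik, Adh1, Gm16559, Adh6b, the pseudogene Adh6-ps1 and Adh4. Adh6b, a class V relative, had a log2 fold change of 0.48 with an SE of 0.75 (adjusted p = 0.773), and Adh6-ps1 had 1.00 (SE 0.92, adjusted p = 0.561) according to the authors' deposited table. Outside the cluster, Trmt10a had -0.36 (SE 0.32), Mttp -0.51 (SE 0.23), Metap1 -0.46 (SE 0.23) and Eif4e -0.20 (SE 0.22), and none of these 4 was called in the authors' deposited table. Adh1 and Adh4 were thus the called genes among the 12 shown, one in each direction, and the interval of Adh4 lay wholly below that of each of the others. The low counts of 0610031O16Rik, Adh6b and Adh6-ps1, with means of 24.3 to 49.4, leave wide intervals.

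**Figure D3:**
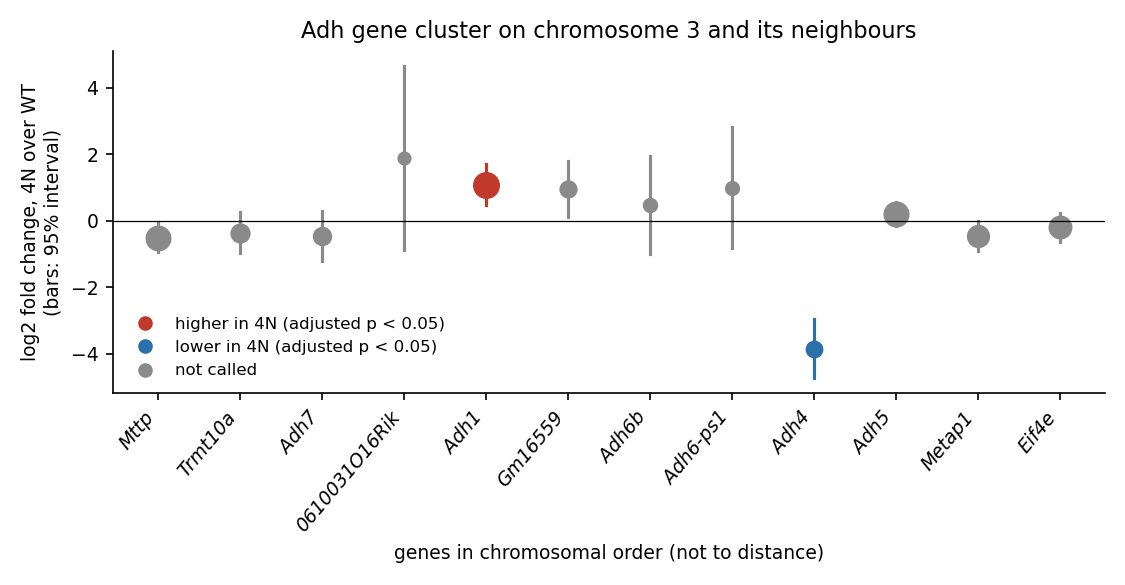
Log2 fold change of 4N over WT (vertical, bars for the 95% interval) for the listed genes of the Adh cluster on chromosome 3 and 2 neighbours on each side, in chromosomal order and not to distance, with larger points for higher means. Adh1 at 1.08 and Adh4 at -3.84 are the coloured points among 12 genes.

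Aldh2, the mitochondrial enzyme that clears acetaldehyde, had nearly the same level in both groups. The implied level was 24151 normalized counts in 4N and 25003 in WT, or 96.6% of WT with a 95% interval of 66.7 to 140%. The log2 fold change was -0.05 ± 0.27 (SE; adjusted p = 0.946) according to the authors' deposited table, and 0.59 (adjusted p = 0.0771) after plasma-protein recentring. With an interval that wide, the data do not show that the levels were equal.

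Aldh1b1, a mitochondrial relative of Aldh2 that also accepts acetaldehyde and retinal, fell. Its implied level was 8242 normalized counts in 4N and 15289 in WT, or 53.9% of WT (95% interval 36.5 to 79.7%). Its log2 fold change was -0.89 ± 0.29 (SE; adjusted p = 0.0167) according to the authors' deposited table. After plasma-protein recentring it was -0.25 (adjusted p = 0.529), which ends the call.

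Aldh1a1, the cytosolic enzyme that turns retinal into retinoic acid, was low in both groups, at an implied 357 normalized counts in 4N and 534 in WT. Its log2 fold change of -0.58 with an SE of 0.34 (adjusted p = 0.276) fell short of the threshold in the authors' deposited table, and the sign turned to 0.06 after plasma-protein recentring. Its closely related neighbour on chromosome 19, Aldh1a7, rose by 1.62 ± 0.47 (SE; adjusted p = 0.00593) according to the authors' deposited table, with an implied 931 normalized counts in 4N against 303 in WT. Of 2259 windows of 100 bases in the Aldh1a1 transcript 1 also occurs in Aldh1a7. How the counting treated reads that fit both is not given in the sources used here, and the difference between the fold changes of these neighbours was not tested.

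Aldh8a1 had the lowest adjusted p of the 10 genes and fell in 4N liver. The enzyme oxidizes 2-aminomuconic semialdehyde, which arises when tryptophan is broken down through kynurenine. At an implied 3957 normalized counts in 4N and 15285 in WT, the level was 25.9% of WT (95% interval 19.5 to 34.4%). Its log2 fold change was -1.95 ± 0.21 (SE; adjusted p = 2.73e-18) according to the authors' deposited table.

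Aldh1l1, the cytosolic 10-formyltetrahydrofolate dehydrogenase, releases the folate-bound formyl group as carbon dioxide, and it fell. Its implied level was 7309 normalized counts in 4N and 19311 in WT, or 37.8% of WT (95% interval 26.5 to 54.1%). The log2 fold change was -1.40 ± 0.26 (SE; adjusted p = 2.86e-06) according to the authors' deposited table. The transcript Gm15756 on the other strand covers 10.5% of the Aldh1l1 transcript.

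Aldh3a2, the membrane-bound fatty aldehyde dehydrogenase, oxidizes long-chain aldehydes from fatty alcohols, phytol and sphingolipids, and it fell too. Its implied level was 9547 normalized counts in 4N and 17202 in WT, or 55.5% of WT (95% interval 42.7 to 72.1%). The log2 fold change was -0.85 ± 0.19 (SE; adjusted p = 0.000187) according to the authors' deposited table. After plasma-protein recentring it was -0.21 (adjusted p = 0.414), which ends the call.

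Ordered by fold change, Adh1 was followed by Adh5, Aldh2, Adh7, Aldh1a1, Aldh3a2, Aldh1b1, Aldh1l1, Aldh8a1 and Adh4. Neighbours in this order had overlapping 95% intervals in every pair but the last, where Aldh8a1 and Adh4 differed by 1.89 on the log2 scale. Per kilobase of transcript, the order of levels in 4N was Adh1, Adh5, Aldh2, Aldh1b1, Aldh3a2, Aldh8a1, Aldh1l1, Aldh1a1, Adh7 and Adh4. In WT it was Adh1, Adh5, Aldh8a1, Aldh1b1, Aldh2, Aldh3a2, Aldh1l1, Adh4, Aldh1a1 and Adh7. Aldh2 thus led the 6 aldehyde dehydrogenases in 4N with 6245 normalized counts per kilobase, next to 6466 in WT, where Aldh8a1 led them. That order in WT depends on the transcript lengths used, 3867 bases for Aldh2 and 2259 for Aldh8a1. Not divided by length, Aldh2 led in WT too, with an implied 25003 normalized counts against 15285 for Aldh8a1. Aldh8a1 held 1752 per kilobase in 4N and 6766 in WT, and Adh1 held 25432 in 4N and 12006 in WT. In WT the levels of Aldh8a1, Aldh1b1, Aldh2 and Aldh3a2 lay close together, between 5565 and 6766 per kilobase, and without values of single libraries their order there has no spread to be read against.

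Summed per kilobase, the 4 Adh genes came to 37985 normalized counts in 4N and 23162 in WT, a ratio of 1.64. The 6 Aldh genes came to 16574 in 4N and 30302 in WT, a ratio of 0.547. Adh1 made up 67.0% of the Adh sum in 4N and 51.8% in WT, and Adh5 made up 32.7% in 4N and 46.1% in WT. Aldh2 made up 37.7% of the Aldh sum in 4N and 21.3% in WT, while Aldh8a1 made up 10.6% in 4N and 22.3% in WT. The shares of Aldh1b1, 21.6% in 4N and 22.0% in WT, and of Aldh3a2, 18.6% in 4N and 18.4% in WT, moved little. These sums and shares are descriptions with no error of their own, and plasma-protein recentring leaves the shares as they are but turns the ratios into 2.55 for the Adh and 0.851 for the Aldh genes.

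**Figure D4:**
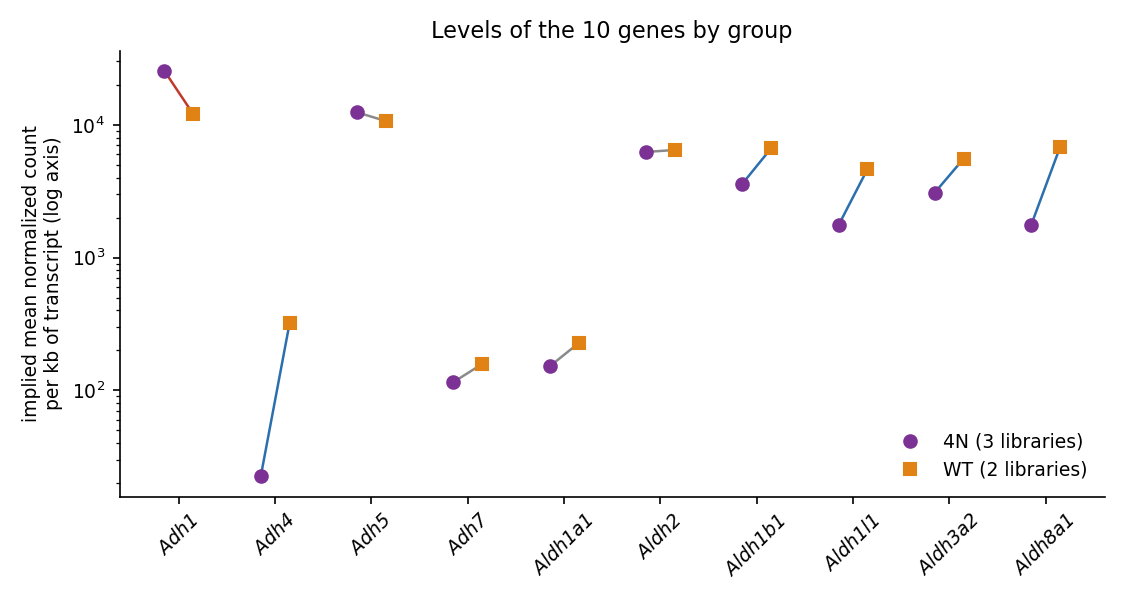
Implied mean normalized count per kilobase of transcript (vertical, log axis) for 4N (circles, 3 libraries) and WT (squares, 2 libraries), with lines coloured red where 4N was called higher, blue where lower and grey where not called. Adh1 stands at 25432 in 4N and 12006 in WT, and the steepest line is that of Adh4, at 22.5 in 4N and 322 in WT.

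Of the other alcohol dehydrogenases, Adh6b and Adhfe1 were listed and 0 of 2 were called, at an unadjusted p under 0.05 also 0. Adhfe1, a mitochondrial hydroxyacid enzyme, had a log2 fold change of -0.31 with an SE of 0.24 (adjusted p = 0.442) according to the authors' deposited table, and 0.32 after plasma-protein recentring. Of 15 other aldehyde dehydrogenases 14 were listed, of which 3 were called higher and 2 lower, with a median log2 fold change of 0.17, and after plasma-protein recentring 5 of 14 were called higher, near the 32.8% of all genes, and 0 lower. Aldh1l2, the mitochondrial counterpart of Aldh1l1, rose by 2.40 ± 0.67 (SE; adjusted p = 0.00391) according to the authors' deposited table, with an implied 496 normalized counts in 4N against 94.1 in WT. The transcript D10Wsu102e on the other strand covers 17.5% of it. Aldh3b3, the remaining gene called higher beside Aldh1a7, had a mean of 16.2 normalized counts and a fold change at the limit that the fit gives to genes without reads in one group, here WT, so no fold is given. Aldh6a1, which acts in valine breakdown, fell by 1.18 ± 0.23 (SE; adjusted p = 9.79e-06) according to the authors' deposited table, to an implied 10593 normalized counts in 4N against 23984 in WT. Aldh4a1, which acts in proline breakdown, fell by 0.82 ± 0.26 (SE; adjusted p = 0.0140) according to the authors' deposited table. Over 47.2% of its transcript it shares exons with Gm21969 on the same strand, so its counts are uncertain. Neither call stood after that recentring, which gave Aldh6a1 -0.54 (adjusted p = 0.0527) and Aldh4a1 -0.19 (adjusted p = 0.625). Of all 20 listed Aldh genes, 3 were called higher and 6 lower, and of all 26 listed Adh and Aldh genes 4 were called higher and 7 lower, with a median log2 fold change of -0.22.

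The enzymes beside the dehydrogenases were read from 9 lists with 117 distinct listed genes, of which 48 were called, against 15.3% of all genes. In the list for the ethanol route outside the family, which holds Acss3 too, 1 of 5 genes was called higher and 2 lower. The median was -0.05, and after plasma-protein recentring 3 were called higher and 2 lower. Cyp2e1, the microsomal ethanol oxidase, fell by 5.87 ± 0.41 (SE; adjusted p = 2.64e-44) according to the authors' deposited table, to an implied 1090 normalized counts in 4N against 63510 in WT. Acetate is joined to coenzyme A by Acss1 and Acss2, and Acss3 is a relative of these that is not taken here as an acetate enzyme. The cytosolic Acss2 rose by 2.04 ± 0.28 (SE; adjusted p = 1.57e-11), and the mitochondrial Acss3 fell by 2.38 ± 0.36 (SE; adjusted p = 1.32e-09) according to the authors' deposited table. Catalase (Cat), which can also oxidize ethanol, had -0.05 (SE 0.21), and Acss1 had 0.44 (SE 0.20), and neither was called in the authors' deposited table. Adh1 and Cyp2e1 thus stood on opposite sides of 0 with intervals that did not overlap, while Aldh2, the step after both, was not called.

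Among retinoid carriers, enzymes and receptors, 27 of 30 were listed, 3 were called higher and 9 lower, and the median was -0.46, and after plasma-protein recentring 9 of 27 were called higher, near the 32.8% of all genes, and 4 lower. Rdh11, a retinal reductase of the endoplasmic reticulum, rose by 1.31 ± 0.20 (SE; adjusted p = 7.09e-09) and Dhrs9, a retinol-oxidizing enzyme, by 1.13 ± 0.37 (SE; adjusted p = 0.0183) according to the authors' deposited table. The remaining gene called higher, Cyp26c1, which breaks down retinoic acid, had a mean of 11.4 normalized counts and stood at the same limit. Rdh16, a microsomal retinol dehydrogenase, fell by 3.13 ± 0.53 (SE; adjusted p = 1.45e-07) according to the authors' deposited table. Rdh5, an enzyme of cis-retinol oxidation, fell by 1.80 ± 0.29 (SE; adjusted p = 1.84e-08) according to the authors' deposited table. Stra6l, a receptor for the retinol carrier Rbp4, fell by 1.19 ± 0.20 (SE; adjusted p = 1.16e-07), and Rbp4 itself, one of the 27 secreted proteins, by 1.26 ± 0.25 (SE; adjusted p = 1.51e-05) according to the authors' deposited table. Of the 10 dehydrogenases, those described above as accepting retinol or retinal did not move alike. Adh1 rose, Adh4 and Aldh1b1 fell, and Adh7 and Aldh1a1 were not called. Outside the 10, the Aldh1a1 relatives Aldh1a2 (0.93, SE 0.72) and Aldh1a3 (0.09, SE 0.52) were not called in the authors' deposited table either.

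Among formaldehyde and folate enzymes, 15 of 15 were listed, 2 were called higher and 3 lower, with a median of -0.18, and after plasma-protein recentring 6 of 15 higher, next to 32.8% of all genes, and 1 lower. Shmt2, the mitochondrial serine hydroxymethyltransferase, rose by 0.98 ± 0.25 (SE; adjusted p = 0.00127), and its cytosolic counterpart Shmt1 fell by 0.96 ± 0.20 (SE; adjusted p = 2.38e-05) according to the authors' deposited table. The Shmt1 call is lost after that recentring (-0.32, adjusted p = 0.197). Ftcd, which feeds histidine carbon into folate, fell by 1.34 ± 0.25 (SE; adjusted p = 2.47e-06) according to the authors' deposited table. Esd, which acts after Adh5 in formaldehyde removal by splitting S-formylglutathione, fell by 0.69 ± 0.20 (SE; adjusted p = 0.00714) according to the authors' deposited table, and stood at -0.06 after recentring.

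In the kynurenine pathway, which makes the substrate of Aldh8a1, 11 of 12 genes were listed, 0 were called higher and 7 lower, with a median of -1.38, and after plasma-protein recentring 0 and 6. Tdo2, which opens tryptophan breakdown in liver, fell by 5.67 ± 0.36 (SE; adjusted p = 4.80e-52) according to the authors' deposited table, to an implied 23.3 normalized counts in 4N against 1188 in WT. The aminotransferases Kyat3 and Aadat, which divert kynurenine to kynurenic acid, fell by 2.67 ± 0.20 (SE; adjusted p = 4.10e-37) and 2.17 (SE 0.29, adjusted p = 3.30e-12) according to the authors' deposited table. Kynu, which cleaves 3-hydroxykynurenine, fell by 1.51 ± 0.24 (SE; adjusted p = 1.13e-08) according to the authors' deposited table. Acmsd, whose product is the semialdehyde that Aldh8a1 draws on, had a log2 fold change of -0.00 with an SE of 0.36 (adjusted p = 0.996) according to the authors' deposited table. The levels of Acmsd were 594 normalized counts in 4N and 596 in WT, so that the steps on either side of that semialdehyde differed in their values, a difference that was not tested.

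Among 8 listed genes of fatty alcohol, phytanic acid and sphingosine phosphate breakdown, which feed or use the aldehydes that Aldh3a2 oxidizes, 0 were called higher and 2 lower, with a median of -0.29, and after plasma-protein recentring 2 and 2. Phyh, which hydroxylates phytanoyl-CoA, fell by 2.12 ± 0.21 (SE; adjusted p = 4.35e-21), and Hacl1, the lyase of the next step, by 2.20 ± 0.25 (SE; adjusted p = 4.00e-16) according to the authors' deposited table. Sgpl1, which makes a fatty aldehyde from sphingosine phosphate, had 0.01 (SE 0.21) and was not called in the authors' deposited table.

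Among 24 listed enzymes that reduce carbonyls or clear lipid aldehydes by other routes, 0 were called higher and 10 lower, with a median of -0.35, and after plasma-protein recentring 9 of 24 higher, next to 32.8% of all genes, and 7 lower. The aldo-keto reductases Akr1c6 and Akr1c20 fell by 4.43 (SE 0.39) and 3.07 (SE 0.27), and the bile acid reductase Akr1d1 by 2.20 (SE 0.22) according to the authors' deposited table. Cbr1, a carbonyl reductase, fell by 2.13 ± 0.22 (SE; adjusted p = 1.48e-19) according to the authors' deposited table. Among 12 listed genes that carry the electrons of cytosolic NADH onward or keep that balance, 0 were called higher and 5 lower, with a median of -0.58, and after recentring 3 and 3. Got1 of the malate-aspartate shuttle fell by 1.60 ± 0.19 (SE; adjusted p = 3.55e-15), and the carrier Slc25a10 by 1.87 ± 0.28 (SE; adjusted p = 7.98e-10) according to the authors' deposited table. The glycerol phosphate shuttle enzymes Gpd1 and Gpd2 fell by 1.30 ± 0.27 (SE; adjusted p = 4.85e-05) and 1.21 (SE 0.28, adjusted p = 0.000266) according to the authors' deposited table, and the Gpd2 call is lost after recentring (-0.57, adjusted p = 0.0962).

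**Figure D5:**
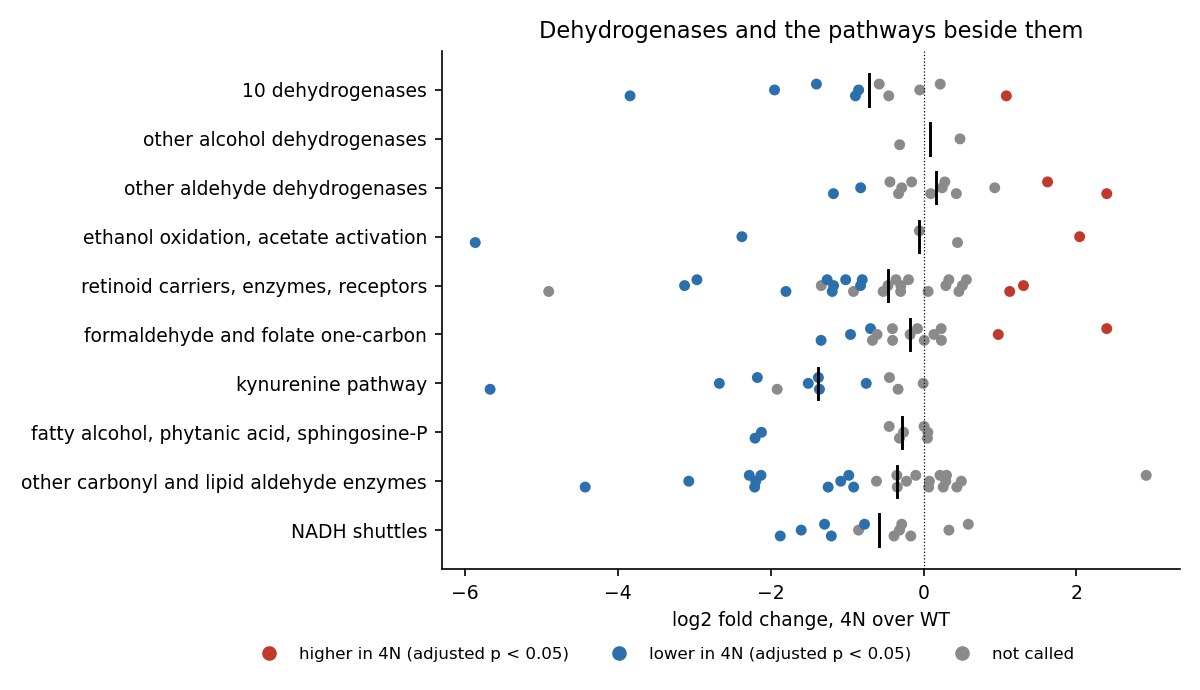
Log2 fold change of 4N over WT for each listed gene (points, coloured by the call) in the 10 dehydrogenases and 9 lists beside them, with a bar at the list's median. Aldh3b3 and Cyp26c1, which stood at the fit's limit for WT, count in the medians and are not drawn, and the median of the kynurenine pathway, -1.38, lies farthest to the left.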

How the data were processed

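Poly(A)-selected RNA of E18.5 livers was measured in 3 4N and 2 WT libraries, grouped by title and genotype label. GRCm39 is the genome build named, per the submitters' processing notes. Neither aligner nor counter is given in the sources used here. The deposited file is 1 comparison table made by the authors, with column names of the form DESeq2 writes, per the file headers. It gives, per the file headers, a mean signal (the normalized count averaged over libraries). Fold changes and their errors were deposited as log2 values. The Wald score in the deposited table is the fold change divided by its error. P-values, raw and adjusted, are the authors' own. Recomputed from the score, they were the normal tail and the Benjamini-Hochberg adjustment over 23022 genes, with 0 missing.

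The table does not name the numerator. Standard errors cannot be smaller than counting allows, and 0 genes fell below that limit if positive means higher in 4N, against 3 otherwise, so positive was read as higher in 4N. Implied group levels, 95% normal intervals, recentred values and tests against a 1.5-fold change were computed from the table. Only the Wald test against 0 with its adjustment and the reading of direction were tried on simulated data. Transcript lengths and overlaps came from GENCODE M21, which describes build GRCm38 and was used for no position of the files. Each gene's length is that of its best-ranked principal protein-coding transcript, the longest where ranks tied. Levels, sums and shares per kilobase rest on that choice. The 10 genes, the lists and the alternatives were chosen with earlier results of these data known. All 10 were named, then in each list up to 4 called genes per direction with the smallest adjusted p, or the 2 most abundant where 0 were called, and in each marker list the most abundant gene and up to 2 called ones. Of the marker genes so chosen, 1 is not reported here. Other genes named are neighbours, overlapping genes, Hhex and the uncalled genes given for contrast (Cat, Acss1, Acmsd, Sgpl1, Aldh1a2, Aldh1a3), chosen after their values were seen. Promoter letters were searched on both strands. Computations used Python 3.11.15, scipy 1.17.1, pandas 2.3.3 and numpy 2.4.6, and plots matplotlib 3.10.9.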

Additional observations from a re-analysis of the deposited data

How the results depend on the processing

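Of the 10 dehydrogenases, 6 were called as deposited, 1 higher and 5 lower. Against a 1.5-fold change 3 were called, 0 higher and 3 lower (Adh4, Aldh1l1 and Aldh8a1), and 21 in place of 48 pathway genes. Under a t distribution (3 degrees of freedom) 0 were called, 0 higher and 0 lower, and 0 pathway genes, with a smallest adjusted p of 0.372. Recentred on the secreted plasma proteins, 2 were called higher and 3 lower, and the signs of Adh7 (0.18), Aldh1a1 (0.057), Aldh2 (0.59) and Adhfe1 (0.32) reversed. That recentring called 7546 genes higher and 811 lower (90.3% higher), against 1828 and 1705 (51.7%) as deposited. With the centre set on genes of a mean from 10000 upward, the value of albumin turned to -0.047 and 6 were called. An adjusted p under 0.01 left 5, without Aldh1b1, and called 1210 genes higher and 1164 lower. The 1.5-fold test called 521 higher and 588 lower. A minimum mean of 50 left 6, and one of 1000, chosen after the data were seen, 5, with Adh4 not tested. The median of the 10 genes ranged from -0.77 to -0.08 over the scalings, and over the 7 genes whose mean reached 1000 it was -0.85. The cause of these shifts was not tested. No paired analysis was possible because the comparison table holds no values of single libraries, and for the same reason leaving out replicates, raw-count tests and other normalizations were not run. The median standard error was 0.90 under a mean of 1000 and 0.24 from there on, and depth per library is unknown.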
